A study of Saccharomyces cerevisiae with 12 samples.

Results

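The genes described are those of budding yeast (Saccharomyces cerevisiae) that encode proteins of the large (60S) subunit of the cytoplasmic ribosome. They were taken by symbol, as every gene named RPL followed by a number and, where present, the copy letter A or B, together with the stalk genes RPP0, RPP1A, RPP1B, RPP2A and RPP2B. Of 81 such genes in the RefSeq annotation, 78 had a probe naming them on the array used for testing, out of 5574 genes named there. No measured value entered the choice.

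The large subunit joins amino acids at the peptidyl transferase centre, releases the growing chain through an exit tunnel and carries a flexible stalk that recruits translation factors. In budding yeast most ribosomal protein genes are kept as pairs of near-identical paralogues, called A and B, that descend from a whole-genome duplication. Their promoters are bound by Rap1 and by the Fhl1 and Ifh1 pair, and their mRNAs are among the most abundant of a growing cell and rise and fall with growth signals through the TOR and protein kinase A pathways.

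Each of 12 spotted arrays carried RNA of a deletion mutant in channel 1 and RNA of the wild type, strain FY2, in channel 2. The mutants were strain FY31, deleted for SNF2, and strain YPS1, deleted for SWI1. Snf2 is the motor of Snf/Swi, a complex that moves nucleosomes with the energy of ATP, and Swi1 is one of its other subunits. The strains were grown in minimal medium or in the rich medium YPD, which gave 4 groups of 3 arrays: snf2 minimal, swi1 minimal, snf2 rich and swi1 rich. The comparisons ask what the loss of either subunit changes, whether the mutants differ and whether the medium matters. Each mutant was 1 strain. Separate cultures are not named for the arrays of a group, so a p-value covers no more than the spread between these arrays, which may be technical. Other alleles of the strains, including their mating type, are not given in the sources used here.

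Values are log2 ratios of mutant over wild type, relative to the median gene of the same array, with the spots of a gene averaged. This direction is likely but is not stated in the labels. It rests on the wild type being channel 2 and named first, and on ScanAlyze, the image software, taking its ratio as channel 2 over channel 1. With the opposite reading every lower value becomes higher. Replicates 2 and 3 of each group shared 1 platform and were tested with limma (8 arrays, n = 2 per group), and replicate 1, on other platforms, was set beside them. A gene was called lower or higher where its limma p-value, adjusted by Benjamini and Hochberg's method over all genes tested, was under 0.05. Errors are limma's standard errors unless SD is named.

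Between 3850 and 5529 genes were measured on an array, the fewest on snf2 rich replicate 3. Array snf2 rich replicate 1 stood apart, with an SD over all genes of 1.41 against 0.55 to 0.83 on the other 11. On the arrays labelled snf2, SNF2 itself was called higher than in wild type. It was 0.89 ± 0.15 in minimal and 0.67 ± 0.15 in rich medium (limma adjusted p = 0.00467 and 0.0104). That sign is the opposite of the one a deleted gene would have in the direction used here. On those labelled swi1, SWI1 did not pass, at -0.65 ± 0.30 and 0.27 ± 0.29. The deleted genes thus do not bear out the labels or the direction. All 4 alpha-cell mating-type markers tested in minimal medium fell, with medians of -3.45 on snf2 and -2.95 on swi1 arrays. In rich medium 3 of 3 fell on snf2 and 4 of 4 on swi1 arrays, with medians of -1.66 and -2.15. Of the a-cell markers, between 0 and 1 of those tested rose and between 0 and 1 fell in a group (2 to 6 tested, medians -0.06 to 0.23). What part mating type has in the ribosomal protein values was not tested.

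The large-subunit genes read below the median gene on every array as a group. Their median was -0.68, -0.64 and -0.73 on replicates 1, 2 and 3 of snf2 minimal, and -0.71, -0.55 and -0.52 on those of swi1 minimal. In rich medium it was -0.84, -0.76 and -0.80 for snf2, against -0.52, -0.70 and -0.70 for swi1. All 12 medians thus lay below -0.5, in both mutants, in both media and on all platforms. Of the 870 values of large-subunit genes on the 12 arrays, 847 were below 0. Per array, 92.8% to 100% of the genes were below 0, where centring puts the median of all genes. The genes also lay close to each other: their SD on the 8 tested arrays was 0.24 to 0.35, against 0.55 to 0.70 over all genes. On snf2 rich replicate 1 they spread from -3.45 to 1.09.

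**Figure D1:**
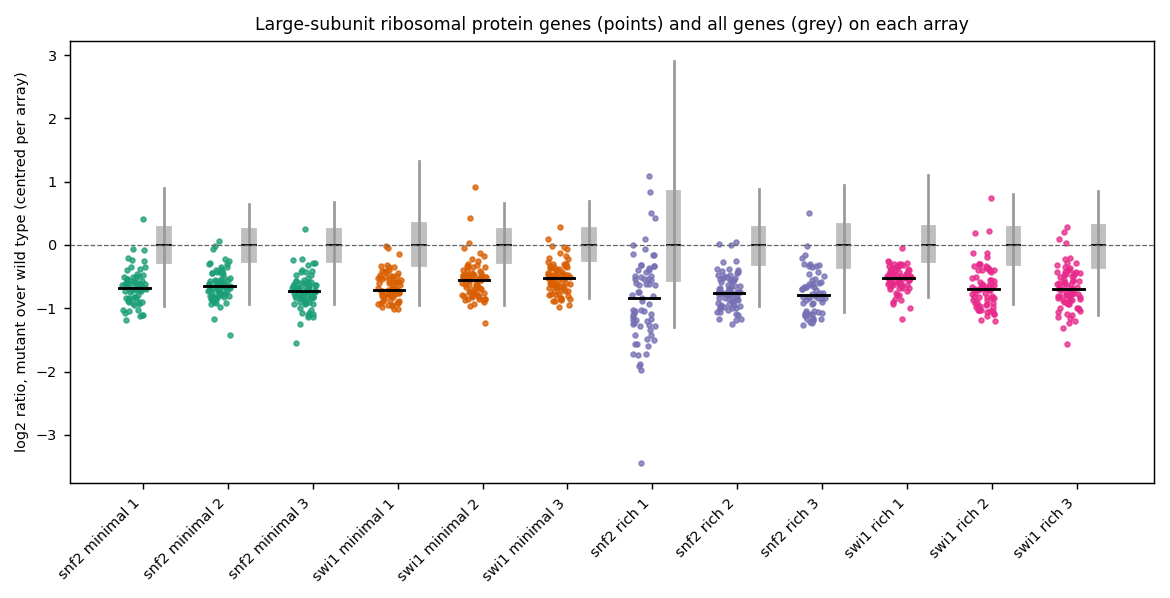
Log2 ratio of mutant over wild type, centred per array, for each large-subunit ribosomal protein gene (coloured points, black line at their median) on each of the 12 arrays, beside all genes (grey box: quartiles, grey line: 5th to 95th percentile, black line: median). Medians of the large-subunit genes lie between -0.84 and -0.52, and the points of snf2 rich replicate 1 spread from -3.45 to 1.09.

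In snf2 minimal, 71 of 77 large-subunit genes tested were called lower and 0 higher, with a median of -0.67, where limma called 16.4% of all genes lower and 12.8% higher. In swi1 minimal, 60 of 76 were lower and 0 higher, with a median of -0.55, against 14.8% and 13.7% of all genes. The snf2 rich arrays gave 54 of 59 lower and 0 higher, with a median of -0.73, against 22.2% and 19.5%. In swi1 rich, 65 of 73 were lower and 0 higher, with a median of -0.72, against 21.7% and 19.1%. At an unadjusted p under 0.05, limma gave 73, 68, 54 and 68 genes in these 4 groups, in either direction, against 41.5%, 41.0%, 50.7% and 49.6% of all genes. The changes were moderate in size. Of the called large-subunit genes, 2, 1, 10 and 8 changed at least 2-fold, in the same order of groups. Of all genes tested, 251 of 5307, 272 of 5354, 291 of 3698 and 306 of 5026 were called and changed as much.

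The number of calls rested on single arrays, most of all in minimal medium and less so in rich medium, while the median did not. Without snf2 minimal replicate 3, 37 genes were lower in that group, where 8.10% of all genes were called lower. Without swi1 minimal replicate 2 or 3, 22 or 27 were lower in swi1 minimal, against 6.01% and 8.0% of all genes. With all 12 arrays and the platform as a random block, 38, 23, 42 and 35 genes were lower, while the share of all genes called lower was 5.24%, 4.91%, 11.4% and 5.21%. Replicate 1 was outside the main fit of 8 arrays. It had the sign of the mean tested there for 67 of 68 genes of snf2 and 67 of 67 of swi1 in minimal medium. In rich medium it had that sign for 47 of 51 and 65 of 66. Over all genes the same shares were 66.8%, 65.4%, 57.1% and 62.0%. Because each group holds few arrays, that number limits the precision of every value.

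Most of these genes were lower in every group. Of the 55 tested in all 4 groups, 39 (70.9%) were lower in all 4, against 306 of 3207 of all genes (9.54%). Another 10 were lower in 3 groups, 2 in 2 groups and 4 in none. Over the 12 arrays, 60 of the 68 genes measured on at least 10 arrays were below 0 wherever measured, as were 10.1% of the 5079 genes of the array measured as often. Only RPL13B, RPL41A, RPL41B and RPL43B were called lower in no group.

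**Figure D2:**
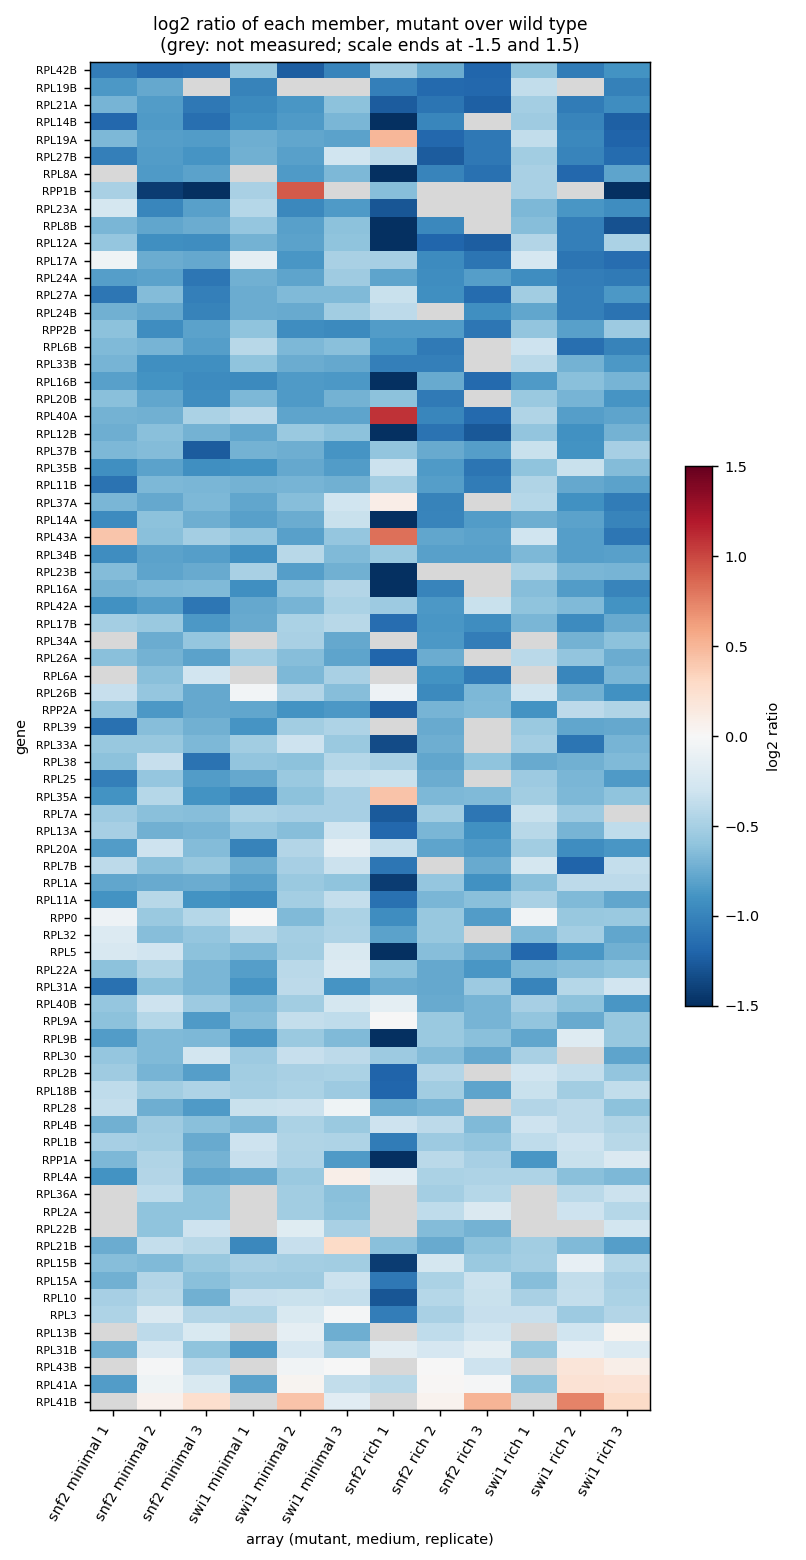
Colour map of the log2 ratio of mutant over wild type for the 78 large-subunit genes (rows, ordered by their mean over the 8 tested arrays) on the 12 arrays (columns), with values not measured in grey. Nearly the whole map is below 0 (847 of 870 values), and RPL41B, RPL41A and RPL43B lie at the high end with means of 0.27, -0.03 and -0.06.

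The stalk stands on the base protein L12, with P0 as its scaffold and the acidic proteins P1 and P2 as its arms, which recruit elongation factors. Of the stalk and stalk-base genes tested, in minimal medium 7 of 7 were lower for snf2 and 6 of 6 for swi1, and in rich medium 6 of 6 and 5 of 6. RPP0 (YLR340W), the scaffold, read -0.08, -0.55 and -0.42 on replicates 1, 2 and 3 for snf2 and -0.01, -0.67 and -0.47 for swi1 in minimal medium, and -0.93, -0.57 and -0.84 for snf2 and -0.05, -0.57 and -0.56 for swi1 in rich medium. It was near 0 on replicate 1 of 3 groups and clearly below 0 on the other 9 arrays. Its tested changes were -0.49 ± 0.10, -0.57 ± 0.10, -0.71 ± 0.11 and -0.56 ± 0.10 in the order of groups just given, all passing limma's test. Left out in turn, snf2 minimal replicates 2 and 3 and swi1 minimal replicate 2 each ended the call of RPP0 in their group (adjusted p = 0.122, 0.0683 and 0.087). With all 12 arrays and the platform as a random block RPP0 did not pass in snf2 minimal, swi1 minimal or swi1 rich (adjusted p = 0.42, 0.32 and 0.41).

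RPP2B (YDR382W), an arm of the stalk, read -0.62, -0.93 and -0.80 for snf2 and -0.61, -0.93 and -0.95 for swi1 in minimal medium, and -0.84, -0.84 and -1.09 for snf2 and -0.59, -0.82 and -0.55 for swi1 in rich medium. All 12 values were below -0.5, and the tested changes were -0.86, -0.94, -0.96 and -0.68. Its paralogue RPP2A (YOL039W) read -0.60, -0.86 and -0.77, then -0.77, -0.90 and -0.87, then -1.24, -0.70 and -0.66, and last -0.90, -0.39 and -0.45. RPP2A was lower in all 4 groups, and its replicates 2 and 3 in swi1 rich were higher than in the other groups. That call in swi1 rich ended without replicate 3 (adjusted p = 0.0748).

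RPP1A (YDL081C), the other kind of arm, read -0.67, -0.45 and -0.71 for snf2 and -0.34, -0.47 and -0.85 for swi1 in minimal medium, and -1.49, -0.41 and -0.50 for snf2 and -0.87, -0.33 and -0.22 for swi1 in rich medium. It was below 0 on all 12 arrays, was called lower in 3 groups and did not pass in swi1 rich (-0.28, limma adjusted p = 0.107). Leaving out snf2 minimal replicate 3, swi1 minimal replicate 3 or either snf2 rich array ended its call in that group (adjusted p = 0.0798 to 0.152), as did the 12-array fit in both minimal groups (adjusted p = 0.0563 and 0.0741) and the lack of centring in snf2 rich (adjusted p = 0.0631).

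RPP1B (YDL130W) has the largest tested change in snf2 minimal, -1.49 ± 0.11, but it rests on a different spot on each array. Spot 1 read -1.42 on replicate 2 and spot 2 read -1.55 on replicate 3. Spot 1 also read 0.92 on swi1 minimal replicate 2 and -1.56 on swi1 rich replicate 3, and the gene was measured on no other of the 8 arrays. On replicate 1 it read -0.48, -0.49, -0.64 and -0.48 in the 4 groups. The medians of all large-subunit genes on those arrays were -0.68, -0.71, -0.84 and -0.52. With all 12 arrays and a platform block its change in snf2 minimal was -1.0 and did not pass (adjusted p = 0.324).

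Both genes of the stalk base were among the lowest in snf2 rich. RPL12A (YEL054C) read -0.58, -0.92 and -0.93 for snf2 and -0.71, -0.80 and -0.60 for swi1 in minimal medium, and -1.72, -1.19 and -1.24 for snf2 and -0.44, -1.02 and -0.47 for swi1 in rich medium. RPL12B (YDR418W) read -0.73, -0.63 and -0.70, then -0.78, -0.55 and -0.61, then -1.98, -1.11 and -1.27, and last -0.60, -0.91 and -0.71. In both genes the 3 snf2 rich arrays were below the other 9. Their tested changes in that group were -1.21 ± 0.14 and -1.19 ± 0.10 (limma adjusted p = 0.000488 and 0.000137), and replicate 1 did not enter this test.

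Proteins L5 and L11 enter the subunit with the 5S rRNA as a preformed particle. RPL5 (YPL131W), a single-copy gene, read -0.24, -0.28 and -0.62 for snf2 and -0.67, -0.52 and -0.23 for swi1 in minimal medium, and -3.45, -0.63 and -0.76 for snf2 and -1.18, -0.87 and -0.72 for swi1 in rich medium. All arrays were below 0, and the value of snf2 rich replicate 1 was the lowest of any large-subunit gene on any array. RPL5 was called lower in 3 groups and did not pass in swi1 minimal (-0.37 ± 0.12, limma adjusted p = 0.0562). RPL11A and RPL11B, the paralogues for L11, were lower in all 4 groups, at -0.43 to -0.72 and at -0.68 to -0.94.

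Around the peptidyl transferase centre lie L2, L3 and L10, and the medians of their genes were nearer to 0 than those of all large-subunit genes in each group, a difference that was not tested. RPL3 (YOR063W), a single-copy gene, read -0.46, -0.22 and -0.43 for snf2 and -0.45, -0.22 and -0.03 for swi1 in minimal medium, and -1.04, -0.48 and -0.34 for snf2 and -0.35, -0.55 and -0.44 for swi1 in rich medium. RPL10 (YLR075W), whose protein is among the last to join the subunit, read -0.50, -0.42 and -0.72, then -0.35, -0.33 and -0.35, then -1.28, -0.42 and -0.34, and last -0.49, -0.36 and -0.48. Neither gene was above 0 on any array. RPL10 was called lower in all 4 groups (-0.34 to -0.57), and RPL3 in all but swi1 minimal (-0.13 ± 0.10, limma adjusted p = 0.392). The medians of the 3 or 4 genes tested were -0.59, -0.41, -0.38 and -0.45 in snf2 minimal, swi1 minimal, snf2 rich and swi1 rich.

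Genes for the exit tunnel and its rim, where chaperones and the signal recognition particle dock, were lower in 14 of 14, 12 of 14, 11 of 12 and 12 of 14 cases, with medians of -0.69, -0.53, -0.75 and -0.68. RPL17A (YKL180W), whose protein reaches into the tunnel, read -0.06, -0.75 and -0.76 for snf2 and -0.14, -0.87 and -0.48 for swi1 in minimal medium, and -0.50, -0.95 and -1.09 for snf2 and -0.25, -1.09 and -1.14 for swi1 in rich medium. In each of the 4 groups replicate 1 was the highest. Its change of -1.12 ± 0.11 in swi1 rich (limma adjusted p = 0.000504) was -0.66 with all 12 arrays and a platform block and did not pass (adjusted p = 0.0536). RPL25 (YOL127W), the docking site at the tunnel's rim, read -1.02, -0.58 and -0.84 for snf2 and -0.76, -0.55 and -0.35 for swi1 in minimal medium, and -0.33 and -0.75 on replicates 1 and 2 for snf2 and -0.55, -0.68 and -0.84 for swi1 in rich medium. It was called lower in the 3 groups where it was tested.

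RPL19A (YBR084C-A), for a protein at the rim that also bridges the subunits, read -0.68, -0.83 and -0.84 for snf2 and -0.73, -0.78 and -0.80 for swi1 in minimal medium, and 0.50, -1.18 and -1.08 for snf2 and -0.37, -0.97 and -1.21 for swi1 in rich medium. Apart from snf2 rich replicate 1, every array was below 0, and the tested replicates of rich medium were below those of minimal medium. It was lower in all 4 groups, at -0.83, -0.79, -1.13 and -1.09. The change in swi1 rich did not pass with all 12 arrays and a platform block (-0.78, adjusted p = 0.0952). RPL19B reached -1.17 in snf2 rich, the one group in which it was tested. RPL31A and RPL31B, for the protein beside which the chaperone complex RAC sits, were lower in both minimal groups. In rich medium RPL31A was -0.65 and passed on snf2 arrays and was -0.36 and did not pass on swi1 arrays (limma adjusted p = 0.062), and the difference between the mutants did not pass.

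RPL40A (YIL148W) and RPL40B (YKR094C) encode L40 fused to ubiquitin, so they also supply ubiquitin. RPL40A read -0.71, -0.72 and -0.47 for snf2 and -0.39, -0.79 and -0.79 for swi1 in minimal medium, and 1.09, -0.98 and -1.17 for snf2 and -0.45, -0.83 and -0.80 for swi1 in rich medium. RPL40B read -0.58, -0.31 and -0.55, then -0.68, -0.52 and -0.26, then -0.14, -0.76 and -0.70, and last -0.49, -0.62 and -0.88. Both were lower in all 4 groups, and the only value above 0 was that of RPL40A on snf2 rich replicate 1.

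L42 lies at the exit (E) site for tRNA, and mutations in it, as in L28, can make yeast resistant to cycloheximide. RPL42B (YHR141C) read -1.04, -1.16 and -1.14 for snf2 and -0.56, -1.24 and -0.99 for swi1 in minimal medium, and -0.53, -0.74 and -1.19 for snf2 and -0.60, -1.05 and -0.90 for swi1 in rich medium. All 12 arrays were below -0.5. Its changes of -1.15 ± 0.13 in snf2 minimal and -1.11 ± 0.13 in swi1 minimal were the largest tested there except for RPP1B in snf2 minimal (limma adjusted p = 0.000961 and 0.00118). It was -0.97 in both rich groups. RPL42A, its paralogue, was -0.96 in snf2 minimal.

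RPL28 (YGL103W), a single-copy gene, read -0.35, -0.73 and -0.85 for snf2 and -0.33, -0.32 and -0.06 for swi1 in minimal medium, and -0.75 and -0.69 on replicates 1 and 2 for snf2 and -0.44, -0.39 and -0.61 for swi1 in rich medium. Its tested arrays of the 2 minimal groups did not overlap, but on replicate 1 the values were alike. RPL28 was lower in snf2 minimal and did not pass in swi1 minimal (-0.79 ± 0.11 and -0.19 ± 0.11).

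Several other genes carried the largest changes of a group. In snf2 minimal these were RPL14B (-0.99), RPL42A (-0.96) and RPL21A (-0.95). Without snf2 minimal replicate 3, RPL42A was -0.82 and no longer passed (limma adjusted p = 0.06). In swi1 minimal they were RPP2B (-0.94), RPL23A (-0.90), RPP2A (-0.88) and RPL16B (-0.85). In snf2 rich RPL19B, RPL21A and RPL27B followed the L12 genes, at -1.17, -1.16 and -1.16. In swi1 rich they were RPL8B (-1.17 ± 0.11), RPL17A (-1.12), RPL14B (-1.11), RPL19A (-1.09) and RPL27B (-1.07). RPL8B (YLL045C) shows what such a change looks like by array: it read -0.64, -1.03 and -1.31 in swi1 rich, -0.69, -0.78 and -0.75 for snf2 and -0.58, -0.82 and -0.61 for swi1 in minimal medium, and -1.88 and -0.97 on replicates 1 and 2 of snf2 rich. Every array was below -0.5, and the 3 lowest values were from rich medium.

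The genes for L41, the smallest ribosomal protein, were called in no group. RPL41B (YDL133C-A), with no value on replicate 1, read 0.06 and 0.25 for snf2 and 0.42 and -0.17 for swi1 in minimal medium, and 0.05 and 0.51 for snf2 and 0.74 and 0.29 for swi1 in rich medium. It was above 0 on 7 of 8 arrays, and the changes were 0.16, 0.13, 0.28 and 0.52, none passing limma's test (adjusted p = 0.0581 in swi1 rich). Without the centring of arrays the value in swi1 rich was 0.61 and passed (adjusted p = 0.0378). Without swi1 minimal replicate 2 or 3, which leaves the value of RPL41B in swi1 rich at 0.52, it passed too (limma adjusted p = 0.0476).

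RPL41A (YDL184C) read -0.06 and -0.23 on replicates 2 and 3 for snf2 and 0.04 and -0.37 for swi1 in minimal medium, and 0.01 and -0.02 for snf2 and 0.22 and 0.21 for swi1 in rich medium. On replicate 1 of the same groups it read -0.84, -0.81, -0.42 and -0.61. The 4 replicate 1 arrays, of other platforms, thus lay below all 8 arrays of the shared platform, and no group passed. With all 12 arrays and a platform block its change in swi1 rich turned from 0.21 to -0.24 and in snf2 minimal moved from -0.15 to -0.54, neither passing. In snf2 rich it moved from -0.01 to -0.32.

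RPL43B (YJR094W-A), for a zinc-binding protein, read -0.01 and -0.39 for snf2 and -0.05 and -0.01 for swi1 in minimal medium, and -0.01 and -0.31 for snf2 and 0.18 and 0.09 for swi1 in rich medium, with no value on replicate 1. It lay within 0.1 of 0 on 5 of 8 arrays, and no group passed. RPL13B (YMR142C) read -0.40 and -0.23, then -0.13 and -0.73, then -0.38 and -0.30, and last -0.29 and 0.04. It was below 0 on 7 of 8 arrays with a mean of -0.30, and again no group passed. The paralogues RPL43A and RPL13A had means of -0.75 and -0.63 over the same arrays. RPL43A (YPR043W) was lower in all 4 groups, but on replicate 1 it read 0.42 for snf2 in minimal and 0.83 for snf2 in rich medium, and with all 12 arrays and a platform block its change in snf2 minimal was 0.04 against -0.57 without.

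Genes with a single copy were lower in 10 of 10 cases for snf2 and 5 of 10 for swi1 in minimal medium, and in 6 of 6 and 9 of 9 in rich medium, with medians of -0.59, -0.41, -0.70 and -0.65. Duplicated genes were lower in 61 of 67, 55 of 66, 48 of 53 and 56 of 64 cases, with medians of -0.67, -0.58, -0.79 and -0.74. The median of the single-copy genes was thus nearer to 0 in each group. Among duplicated genes, 32 of 33 A copies and 27 of 32 B copies were lower in snf2 minimal, and 28 of 33 and 25 of 31 in swi1 minimal. In rich medium these were 27 of 28 and 19 of 23 for snf2, against 29 of 32 and 25 of 30 for swi1. None of these differences was tested.

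Both genes were probed in 33 paralogue pairs, and 31 of these were measured together on at least 6 of the 8 tested arrays. Copies of a pair can hybridise to each other's probe, so differences between them are uncertain and may be understated. The difference of copy A minus copy B had a median size of 0.15 over the 31 pairs, was under 0.1 in 13 and reached 0.3 in 4. Spots of 1 gene on 1 array differed by a median of 0.21 to 0.28 over all genes. That is a difference on single arrays, while the pair differences are means over arrays, so their sizes are not comparable. In snf2 minimal both copies were lower in 27 of 32 pairs tested, 1 copy in 4 and neither in 1. In swi1 minimal the same counts were 22, 7 and 2 of 31, in snf2 rich 16, 3 and 1 of 20, and in swi1 rich 24, 3 and 2 of 29.

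The largest difference was in L43, where copy A was below copy B on 8 of 8 arrays, by -0.69 ± 0.32 (SD over arrays). RPL21 followed, with copy A lower on 8 of 8 arrays by -0.50 ± 0.24 (SD). RPL21A (YBR191W) read -0.83 and -1.07 for snf2 and -0.87 and -0.62 for swi1 in minimal medium, and -1.09 and -1.22 for snf2 and -1.05 and -0.94 for swi1 in rich medium. RPL21B (YPL079W) read -0.35 and -0.41, then -0.35 and 0.29, then -0.76 and -0.61, and last -0.66 and -0.82. The copies did not overlap within any group, and RPL21B did not pass in either minimal group while RPL21A was lower in all 4. On replicate 1 the difference did not repeat, at -0.14 on average with copy A higher on 3 of 4 arrays.

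RPL31 had a difference of -0.28 ± 0.16 (SD), with copy A lower on 8 of 8 arrays. Replicate 1 gave -0.36 with copy A lower on 4 of 4 arrays. With spots averaged, RPL31 thus kept its sign on all 12 arrays. The spots of RPL31B differed, at -0.01 and -0.50 on swi1 minimal replicate 2 and -0.12 and -0.90 on replicate 3. RPL31A read -0.39 and -0.88 on these arrays, above spot 2 of RPL31B on both, so the sign there depends on the spot. RPL13 differed by -0.32 ± 0.32 and RPL41 by -0.29 ± 0.21, both without a value on replicate 1. RPL42 differed by 0.32 ± 0.33, with copy A higher on 6 of 8 arrays and on 2 of 4 arrays of replicate 1. The closest pairs were RPL26 (-0.0029 ± 0.17), RPL15 (0.0055 ± 0.19) and RPL24 (-0.0059 ± 0.06). Of the 23 pairs with replicate 1 on 4 arrays, 10 had the same sign of the mean there.

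**Figure D3:**
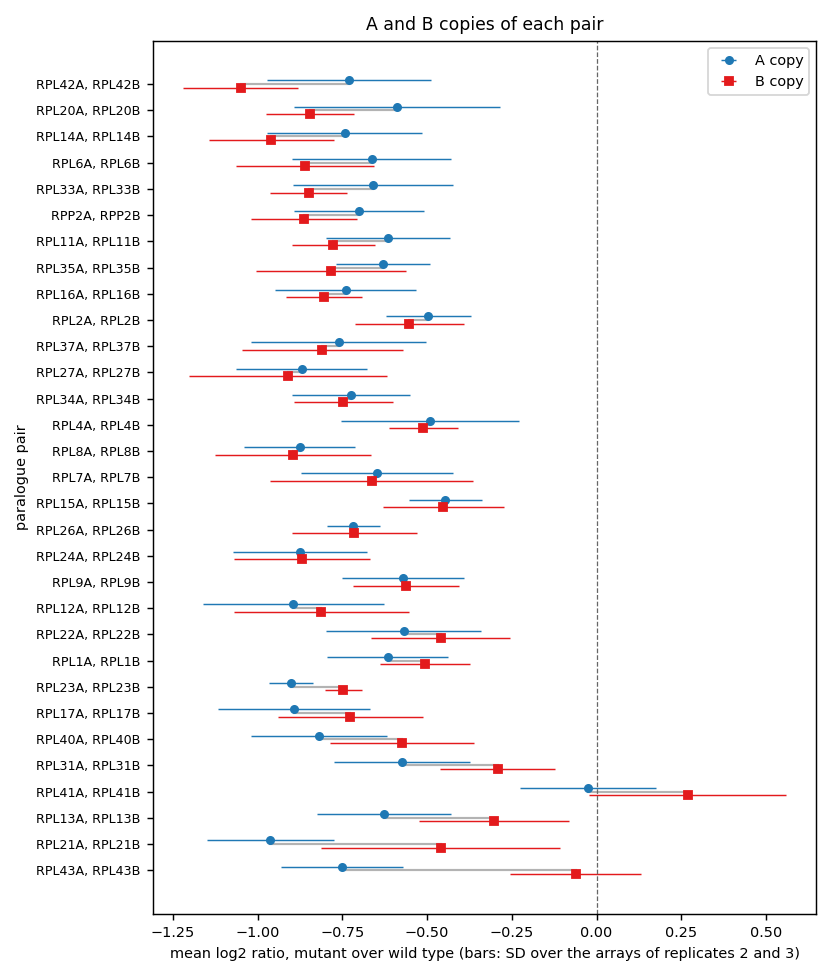
Mean log2 ratio of mutant over wild type (x axis) of the A copy (blue circles) and the B copy (red squares) of the 31 paralogue pairs (y axis), with bars of 1 SD over the tested arrays. RPL43 and RPL21 have the widest gaps, -0.69 and -0.50 for A minus B, and 13 of 31 gaps are under 0.1.

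For the difference between mutants in minimal medium, limma called 0 of 76 large-subunit genes and 0% of all 5123 genes tested, with 1 large-subunit gene at an unadjusted p under 0.05, against 5.47% of all genes. The difference swi1 minus snf2 was above 0 for 62 of 76 genes (81.6%), against 54.9% of all genes, with medians of 0.11 and 0.02. These counts are of replicates 2 and 3. On replicate 1 the difference was above 0 for 37 of 69 large-subunit genes (53.6%), against 48.9% of all genes, with medians of 0.01 and -0.01. The smallest p-values belonged to RPL28 (0.60 ± 0.16) and RPL34B (0.28 ± 0.13).

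In rich medium, limma called 0 of 55 genes different between the mutants, against 0.0294% of all genes, with 4 (7.27%) at an unadjusted p under 0.05, against 6.65% of all genes. The median difference was 0.09 against 0.01 over all genes, and 37 of 55 (67.3%) were above 0 against 52.3%. On replicate 1 the difference was above 0 for 44 of 69 large-subunit genes (63.8%), against 51.25% of all genes. The medians there were 0.31 and 0.04, and they include snf2 rich replicate 1, the array that stood apart. RPL35B and RPL12B had the smallest p-values, with differences of 0.48 ± 0.16 and 0.38 ± 0.14. RPL35B (YDL136W) read -0.85 and -1.10 on the tested arrays of snf2 rich and -0.34 and -0.65 on those of swi1 rich. These did not overlap, but on replicate 1 the order was the opposite, at -0.32 and -0.61.

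Between media, limma called 0 of 58 genes in snf2 and 0 of 73 in swi1, against 5% and 6.26% of all genes. At an unadjusted p under 0.05 there were 4 (6.90%) and 16 (21.9%), against 21.1% and 25.5% of all genes. The median of minimal minus rich was 0.09 in snf2 and 0.15 in swi1, against 0.02 and 0.05 over all genes. On replicate 1 it was 0.22 in snf2 and -0.15 in swi1, so the sign in swi1 was the opposite there. RPL12B led in snf2 (0.52 ± 0.14, limma adjusted p = 0.0832), with the values by array given above, followed by RPL40A (0.48 ± 0.14). RPL40A turned to -0.07 with all 12 arrays and a platform block.

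In swi1, RPP2A had the smallest p-value, with -0.46 ± 0.12 (limma adjusted p = 0.062). It was lower in minimal than in rich medium on replicates 2 and 3, and on replicate 1 it was higher, at -0.77 against -0.90. RPP2A passed without centring (-0.50, adjusted p = 0.0476) and with arrays scaled to 1 spread (-0.61, adjusted p = 0.0307). RPL20A differed by 0.62 ± 0.17 (limma adjusted p = 0.0736). It read -1.01, -0.44 and -0.13 in swi1 minimal and -0.53, -0.94 and -0.87 in swi1 rich, so the tested arrays did not overlap and replicate 1 ran the other way.

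**Figure D4:**
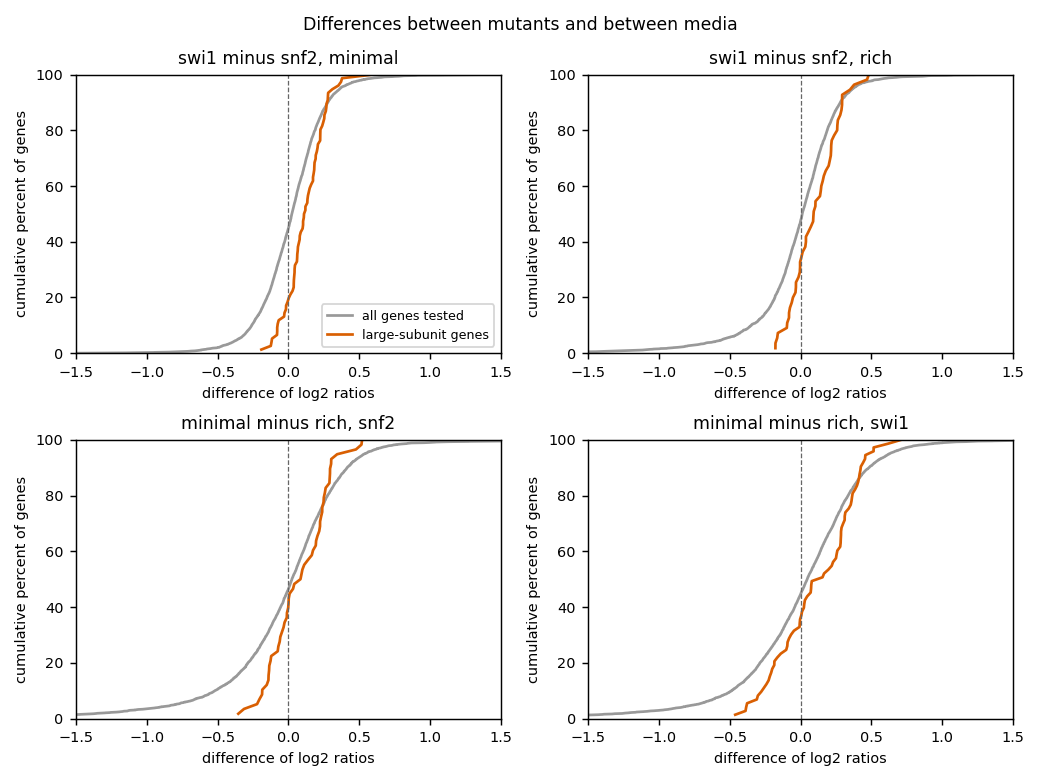
Cumulative percent of genes (y axis) against the difference of log2 ratios (x axis) for large-subunit genes (orange) and all genes tested (grey) in the 4 comparisons between mutants or media. The medians of the large-subunit genes lie at 0.11, 0.09, 0.09 and 0.15, to the right of those of all genes.

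The small-subunit ribosomal protein genes, tested in the same fit, moved much as the large-subunit genes did. They were lower in 47 of 55, 39 of 56, 39 of 44 and 43 of 53 cases and higher in 0, with medians of -0.66, -0.60, -0.65 and -0.63. RPS30A fell by 1.34 in snf2 minimal and RPS26B by 1.19 in snf2 rich. No difference between subunits was tested. Several large-subunit genes lie next to another ribosomal protein gene, among them RPL21A beside RPS9B, RPL24A beside RPL30 and RPP2A beside RPS15.

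Factors that assemble the 60S subunit in the nucleolus and nucleus were lower in 39 of 54, 31 of 55, 39 of 43 and 36 of 49 cases and higher in 1, 1, 1 and 0, with medians of -0.54, -0.43, -0.76 and -0.80. On replicate 1 their medians were nearer to 0, at -0.30, -0.40, -0.21 and -0.17. ACL4, the chaperone dedicated to the large-subunit protein L4, fell by 1.16 in snf2 minimal. NOP7, a factor of early pre-60S particles, fell by 1.07 for snf2 and 0.91 for swi1 in minimal medium, and REI1, a late cytoplasmic factor, fell by 1.22 in snf2 rich. Of the elongation factors that the stalk recruits and their partners, 6 of 9, 5 of 10, 5 of 8 and 6 of 10 were lower and 1 was higher, in snf2 rich. In the 4 groups 16.4%, 14.8%, 22.2% and 21.7% of all genes were called lower. The shares called higher were 12.8%, 13.7%, 19.5% and 19.1%. EFT2, which encodes the translocation factor eEF2, was -0.69 ± 0.11 in snf2 minimal and -0.50 ± 0.11 in swi1 minimal.

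Proteins that dock on the large subunit were lower in 6 of 14, 4 of 14, 5 of 11 and 7 of 13 cases and higher in 1, 0, 1 and 0. The shares of all genes called are those given above. Of the docking proteins STM1, which binds ribosomes and preserves them in starved cells, was called in every group, at -0.73, -0.67, -0.99 and -0.89. Of 22 or 23 regulators of ribosomal protein genes tested, 3, 5, 9 and 7 were lower and 2, 3, 6 and 2 higher, beside the shares of all genes given above. ABF1, a general factor at some of these promoters, was -1.15 ± 0.13 in swi1 rich, and HMO1, an HMG-box protein at many of them, was -0.98 ± 0.16 there. STB3, a repressor that binds promoters of genes for ribosome production, was higher in snf2 rich (1.34 ± 0.43, limma adjusted p = 0.0392). No regulator read above 0.59 on snf2 rich replicate 2, and the highest on replicate 3 read 2.50. The rise of STB3 thus rests mostly on replicate 3. Genes induced in the general stress response were higher in 4 of 22, 5 of 22, 9 of 15 and 11 of 19 cases and lower in 2, 4, 1 and 2, with medians of 0.20, 0.20, 0.40 and 0.34. Of all genes tested, 12.8%, 13.7%, 19.5% and 19.1% were called higher in these groups. The shares called lower were 16.4%, 14.8%, 22.2% and 21.7%. On replicate 1 the medians of these genes had the opposite sign, at -0.53, -0.63, -0.37 and -0.34. HSP12, a small heat shock protein, ran against the medians of this list. It was -4.10 in snf2 minimal, -4.44 in swi1 minimal and -2.70 in swi1 rich, lower in each by the same test. In snf2 rich no gene of the list tested was below -0.63. The largest rises were GLK1, at 2.2 in snf2 rich and 2.1 in swi1 rich, and TSL1, at 2.1 in snf2 rich, all called higher. On replicate 1 of swi1 rich no gene of the list was above 0.86. The lists were chosen with earlier results of these data known, and their counts are descriptions.

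**Figure D5:**
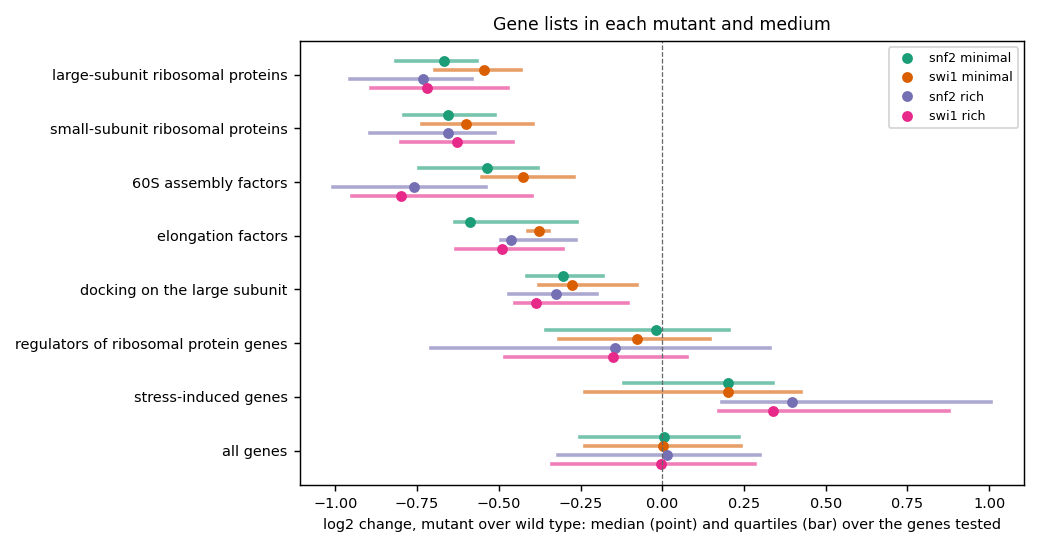
Median (point) and quartiles (bar) of the log2 change of mutant over wild type (x axis) over the genes tested in each gene list (y axis), coloured by group. Medians of the large-subunit genes lie between -0.73 and -0.55 and those of the stress-induced genes between 0.20 and 0.40, all from replicates 2 and 3. On replicate 1, which is not drawn, the stress-induced genes had medians between -0.63 and -0.34.

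Genes that neighbour the large-subunit genes on the chromosome, leaving out ribosomal protein genes and overlapping genes, were lower in 24 of 128 cases (18.8%) for snf2 and 23 of 128 (18.0%) for swi1 in minimal medium. In rich medium they were lower in 24 of 85 (28.2%) and 37 of 117 (31.6%). The background over all genes is 16.4%, 14.8%, 22.2% and 21.7%. Their medians were -0.09, -0.06, -0.04 and -0.14, much closer to 0 than those of the large-subunit genes. How brightness bears on the values was not tested, since spot intensities were not used here. Very dim spots give ratios of small whole numbers. Of the 676 spot values of large-subunit genes, 5.77% matched such a ratio (whole numbers up to 20, log2 equal to 3 decimals), against 13.3% to 17.3% of all probes per array.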

How the data were processed

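RNA of mutant and wild type was compared on 12 two-colour arrays of 4 groups. The authors deposited 1 log2 ratio per probe and array, in 3 tables, 1 per platform. Images were read with ScanAlyze, version 2.24 on replicates 2 and 3 and unknown on replicate 1, per the labels. Normalisation, background correction, dyes, numerator, scale and centring are not given in the sources used here. Base 2 was settled from the values of the 8-array table and taken over for replicate 1.

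The sign was turned to mutant over wild type, each array was centred on its median over genes, and spots of a gene were averaged. Before the sign was turned, the medians over genes were between -0.03 and -0.14, and -0.48 on snf2 rich replicate 1. Centring therefore lowered the values of mutant over wild type on every array. Probes were named from the platform's annotation, with symbols matched to RefSeq locus tags, and the 90 probes of large-subunit genes gave 78 genes (67 genes with 1 probe). No coordinates or sequences are given, since the array's build is not stated and no genome was used.

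limma 3.58.1 (R 4.3.3) was fitted to replicates 2 and 3 of all groups on genes measured on every array compared, two-sided, with Benjamini-Hochberg adjustment over all genes tested in each of 8 comparisons. The procedure was tested on simulated data. Same-numbered replicates were not taken as pairs: their deviations correlated at -0.03 to 0.02 between groups. The alternatives were no centring, arrays scaled to 1 spread, at least 2 spots, genes on all 8 arrays and only the arrays compared. Others were a replicate block, all 12 arrays with a platform block, and each array left out. Alternatives chosen after seeing the data include the platform-block fit without snf2 rich replicate 1.

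Genes named per group were the 5 largest called, the 3 smallest changes, those of opposite sign and the stalk genes, per difference the 2 smallest p-values, the 6 largest and 3 smallest pair differences, and the top genes of other lists. Genes shown for their role (RPL3, RPL5, RPL8B, RPL10, RPL11A, RPL11B, RPL12A, RPL12B, RPL13A, RPL17A, RPL19A, RPL25, RPL31A, RPL40B and RPL43A) were added after their values were seen. The genes and lists were chosen with earlier results of these data known.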

Additional observations from a re-analysis of the deposited data

Results flagged for a closer look

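RPL43B had opposite signs in groups set against each other, on the centred values of every array measured. In rich medium both tested swi1 arrays were above 0 and both snf2 arrays below it, and the means differed by 0.29 (swi1 minus snf2). In swi1, both arrays of minimal medium were below 0 and both of rich medium above it, and minimal minus rich was -0.16. The snf2 rich values were -0.01 (replicate 2) and -0.31, and those of swi1 minimal -0.05 and -0.01. Without centring, snf2 rich replicate 2 was 0.10 and the swi1 minimal arrays 0.03 and 0.02, all above 0, so the opposite signs depend on the centring. The flag rests on these signs alone, replicate 1 has no value of RPL43B, and limma called neither difference, so a difference in RPL43B between groups was not shown. With 3 arrays a group, single outlying arrays were not looked for.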

How the results depend on the processing

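Of the genes called lower, 1 turned its sign under a setting tried: RPL43A in snf2 minimal, at 0.04 on 12 arrays with a platform block. The median change lay between -0.75 and -0.60 for snf2 and -0.61 and -0.49 for swi1 in minimal medium, and -0.80 and -0.62 for snf2 and -0.75 and -0.39 for swi1 in rich medium over all settings. The calls, 71, 60, 54 and 65 in these groups, were 6, 7, 7 and 4 with at least 2 spots, where only 8, 10, 9 and 8 genes were tested, and 38, 23, 42 and 35 on 12 arrays with a platform block. Without snf2 rich replicate 1 the latter gave 37 in snf2 rich (chosen after seeing the data). Leaving out 1 array gave 37 to 72, 22 to 60, 43 to 54 and 47 to 67 calls in either direction, and 28 in swi1 minimal without its replicate 3. All of these were lower except RPP1B, 1 of the 28, and RPL41B, 1 of the 67. With the replicate block the counts were 70, 54, 52 and 65, against 15.1%, 13.2%, 21.0% and 20.1% of all genes called lower. The block changed no call between mutants or media. Minimal minus rich in swi1 went from 0 to 1 call without centring, with arrays scaled to 1 spread and without swi1 minimal replicate 2, a range of 0 to 1. The mean of the small-subunit medians was -0.63, and -0.55 without centring. Of the alternative values of named genes, 774 kept sign and call, 20 lost the call, 5 gained it and 9 turned sign. Without centring RPL43B and RPL21B were 0.02 in swi1 minimal and RPL41A was 0.10 in snf2 rich. With 1 array left out, RPL21B ranged from -0.35 to 0.29 (without swi1 minimal replicate 2) and RPL41B from -0.17 (without the same array) to 0.42 in swi1 minimal. RPL41A ranged from -0.02 to 0.01 in snf2 rich and RPL13B from -0.29 to 0.04 in swi1 rich. On 12 arrays RPL41A was -0.24 in swi1 rich and RPL40A was -0.07 for minimal minus rich in snf2. The causes were not tested. Signal over background was not used here, so what it limits is unknown.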
